A study of Mus musculus with 6 samples.

Results

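Renin-angiotensin genes in granulosa cells, which line the ovarian follicle around the oocyte, were followed here as a list of 8: the receptor genes Agtr2 and Agtr1a, the precursor gene Agt, the processing genes Ren1, Ace and Enpep, and the genes Atp6ap2 and Lnpep, whose products bind prorenin and angiotensin IV. The list was drawn up with earlier results of these libraries known. Agtr2 was selected on its CPM in these same WT and KO libraries, where it had been called lower in KO, and the others were chosen by their place in the same system. Differences between the groups are therefore given for these 8 genes as a description, with no p-value, and any count of calls among them repeats the comparison that selected Agtr2. All 8 symbols were found among 49315 genes in the count files, and all 8 were among the 18250 genes with enough counts to be fitted.

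RNA was sequenced from granulosa cells freshly taken from C57BL/6J mouse ovaries at 8 to 9 weeks of age, in 3 libraries labelled wild type (WT) and 3 labelled Jmjd3 knockout (KO). The series describes the deletion as specific to granulosa cells. The sources used here give no Cre driver, deleted exons, cycle stage or hormone treatment. Jmjd3, also named Kdm6b, encodes a histone demethylase that removes the repressive methyl mark from lysine 27 of histone H3. The labels do not state whether each replicate was a separate animal, so errors reflect how these libraries varied, possibly for technical reasons alone. Each library held between 42379018 and 49901493 counts. Levels are CPM, counts scaled to library size by the TMM method, where 1 CPM stands for 42.5 to 51.4 counts. Kdm6b itself showed no drop in libraries carrying the KO label (66.1 to 72.7 CPM in WT and 64.7 to 112.3 CPM in KO), and reads from undeleted exons would still be counted, so the genotype rests on the labels. All 11 granulosa cell markers were detected, and their summed level was 11331 to 12721 CPM in WT and 12611 to 18435 CPM in KO. Most of that sum was Inha, with means of 6828.8 CPM in WT and 8472.7 CPM in KO, and the highest sum was that of KO replicate 3. Of the 11 markers, 3 had a negative log2 fold change (KO minus WT). Amhr2, 1 of these 3, was called lower, with means of 266.9 CPM in WT and 132.8 CPM in KO (adjusted p = 0.00212, edgeR).

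In this system the protease renin cuts angiotensinogen to angiotensin I, and angiotensin-converting enzyme trims that to the active peptide angiotensin II. Angiotensin II acts through a type 1 receptor, which couples to Gq and raises blood pressure in the body, and a type 2 receptor, whose signalling often opposes it. The ovary has a local system of its own. In rodents the type 2 receptor is the form known from follicular granulosa cells, and in the rat it is known above all from follicles undergoing atresia.

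Upstream sequences are shown for Agtr2, Ren1 and Ace, the 3 genes of the list whose WT and KO libraries did not overlap. Each is the 250 bases before the start of the gene in RefSeq (build GRCm38.p6), written 5′ to 3′ on the strand of the gene. Capitals mark the motif TATAA, the core of a TATA box, which was looked for within 50 bases of the start after the sequences had been read.
Agtr2, chrX:21484374-21484623, plus strand: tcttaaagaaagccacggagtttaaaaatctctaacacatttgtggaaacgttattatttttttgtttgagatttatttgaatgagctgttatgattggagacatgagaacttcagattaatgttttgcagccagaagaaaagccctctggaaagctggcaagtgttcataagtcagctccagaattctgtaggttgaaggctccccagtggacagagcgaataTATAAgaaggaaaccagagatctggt
Ren1, chr1:133350424-133350673, plus strand: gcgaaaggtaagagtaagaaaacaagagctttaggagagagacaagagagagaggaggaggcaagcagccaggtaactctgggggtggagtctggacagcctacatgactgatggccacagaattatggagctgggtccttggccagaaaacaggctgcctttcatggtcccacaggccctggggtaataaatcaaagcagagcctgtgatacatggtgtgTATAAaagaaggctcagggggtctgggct
Ace, chr11:105967698-105967947, plus strand, the first of the 2 starts in RefSeq: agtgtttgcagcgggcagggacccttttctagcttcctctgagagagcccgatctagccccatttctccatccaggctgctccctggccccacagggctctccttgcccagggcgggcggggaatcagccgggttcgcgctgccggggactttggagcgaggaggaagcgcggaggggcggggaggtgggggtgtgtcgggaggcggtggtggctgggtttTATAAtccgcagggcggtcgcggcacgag

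The count files start all 3 genes at an earlier base than RefSeq, inside these windows. The motif began 26 bases before the RefSeq start of Agtr2, 29 before that of Ren1 and 29 before that of Ace. By the starts in the count files, it lies inside the gene in Agtr2 and Ren1 and before the gene in Ace. Of the 7 listed genes with a window, 4 held it on the strand of the gene (these 3 and Agt, 30 bases before the start). Atp6ap2, Lnpep and Enpep did not, nor did the second start of Ace. Among all 27025 genes with a window the share was 5.89%, and 2.80% of all windows held the motif on the opposite strand, as the Ace window also did, overlapping its own. The window of Agtr2 held 3 CG dinucleotides in 250 bases, against a median of 6 and a lower quartile of 2 over all windows. Those of Ren1 (1) and Agt (0) lay below the lower quartile. The windows of Ace (19), Atp6ap2 (20) and Lnpep (25) lay above the upper quartile of 16. Over all fitted genes with a window the median log2 fold change (KO minus WT) was -0.01 in 511 genes with TATAA and 0.00 in 12307 without it. Of these, 6 and 12 were called (1.17% and 0.0975%), with Agtr2, which this same comparison selected, among the former. The motif was chosen after the sequences had been read, so these shares are a description. The part of the motif was not tested. Agtr1a is named without a sequence.

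Agtr2, the type 2 receptor gene (ENSMUSG00000068122, chrX:21484544-21489164, GRCm38, plus strand), was the receptor gene with the clear difference between groups. It measured 16.0, 13.9 and 13.6 CPM in the WT libraries (replicates 1 to 3, in that order here and below), against 7.33, 7.53 and 8.09 CPM in the KO libraries. Every KO library lay well below every WT library, and the KO libraries lay close together. In raw counts the libraries held 664 to 822 reads in WT and 320 to 390 in KO. The means were 14.5 ± 1.30 and 7.65 ± 0.395 CPM (SD, n = 3 each), so KO stood at 52.8% of WT. The log2 fold change was -0.92 ± 0.11 (SE, 95% interval -1.16 to -0.68).

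Agtr1a, the type 1 receptor gene (chr13:30336441-30382867, plus strand), had few reads and showed no such gap. It measured 1.23, 1.49 and 1.78 CPM in the WT libraries, against 1.53, 1.62 and 0.851 CPM in the KO libraries, from 41 to 90 reads a library. KO replicates 1 and 2 lay among the WT libraries, and only KO replicate 3 lay below them. The log2 fold change was -0.17 ± 0.27 (95% interval -0.78 to 0.44), an interval wide enough to hold both falls and rises. Agtr1b, the second type 1 receptor gene of rodents, had no read in any library. It is close in sequence to Agtr1a, and the sources used here do not say how reads matching several places were treated, so both values are uncertain.

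Per kilobase of exon, which allows genes to be compared, Agtr2 RNA exceeded Agtr1a RNA in all 6 libraries. The ratio was 9.68, 6.94 and 5.65 in WT replicates 1 to 3 and 3.54, 3.44 and 7.06 in KO replicates 1 to 3. KO replicate 3, where Agtr1a was also low, lay within the WT range. The mean ratio was 7.42 ± 2.06 in WT and 4.68 ± 2.06 in KO, which overlapped.

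**Figure D1:**
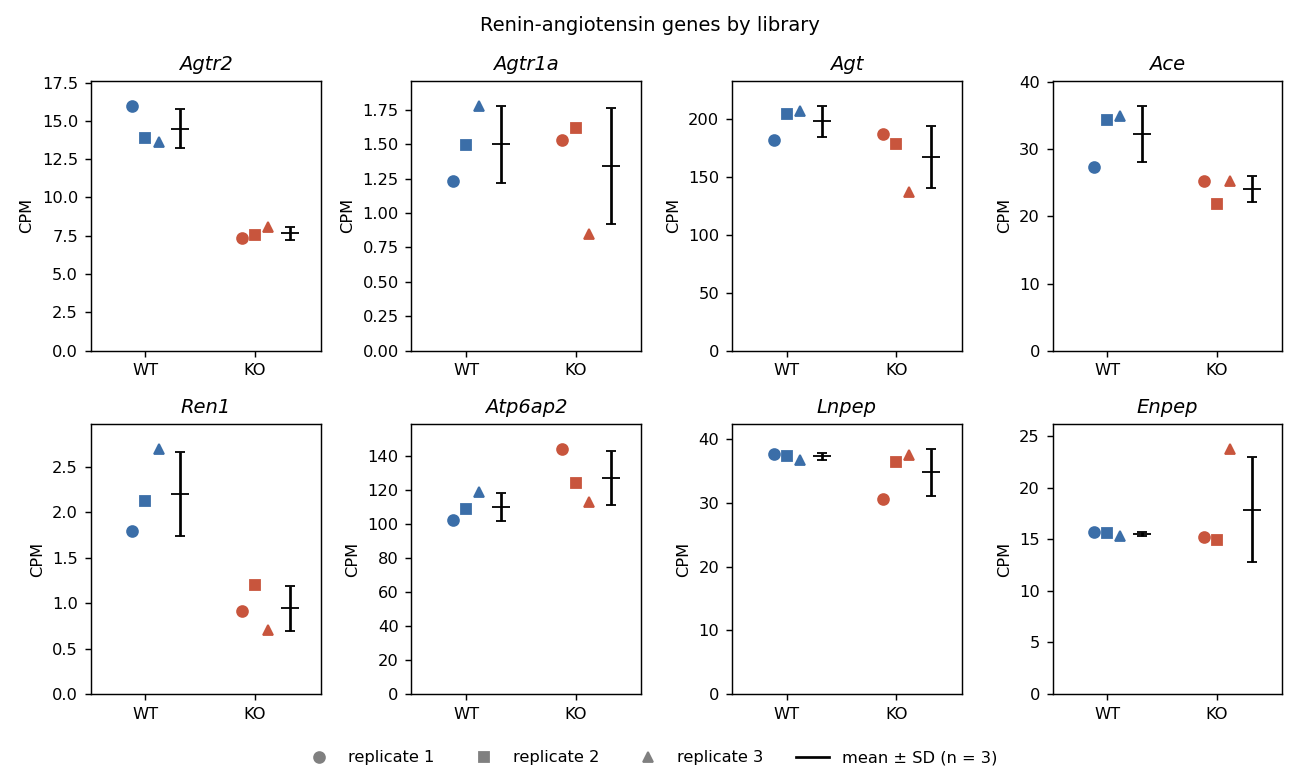
Level of each of the 8 genes in CPM (y axis, starting at 0) in the WT and KO libraries, with a marker shape for each replicate number and the mean ± SD of 3 libraries in black. Agtr2, Ren1 and Ace show no overlap between groups, and Enpep, Agtr1a, Agt and Lnpep each show 1 KO library apart from the others.

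Agt encodes angiotensinogen, the only precursor of the angiotensin peptides, and was the most abundant of the 8 (chr8:124556534-124569706, minus strand). It measured 181.9, 204.0 and 207.0 CPM in the WT libraries, against 186.9, 178.4 and 136.8 CPM in the KO libraries. KO replicate 1 lay above the lowest WT library, so the groups overlapped, and KO replicate 3 was the lowest of the 6. The log2 fold change was -0.24 ± 0.12 (95% interval -0.51 to 0.03), and -0.11 without KO replicate 3.

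Ren1, the renin gene (chr1:133350510-133360325, plus strand), was expressed near the lower end of the list and differed most on the log scale. It measured 1.79, 2.12 and 2.70 CPM in the WT libraries, against 0.917, 1.20 and 0.706 CPM in the KO libraries. Each KO library lay below each WT library, at 34 to 51 reads against 92 to 136. The means were 2.20 ± 0.459 and 0.941 ± 0.248 CPM, so KO stood at 42.7% of WT. The log2 fold change was -1.23 ± 0.25 (95% interval -1.79 to -0.67). Few reads stand behind it, and its interval is wider than that of Agtr2.

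Ace, the converting enzyme gene (chr11:105967945-105989964, plus strand), measured 27.4, 34.4 and 34.9 CPM in the WT libraries, against 25.2, 21.9 and 25.2 CPM in the KO libraries. The groups did not overlap, but WT replicate 1 lay nearer to the KO libraries than to the other WT libraries. KO stood at 74.7% of WT, with a log2 fold change of -0.42 ± 0.11 (95% interval -0.66 to -0.18). Ace is also a well-known endothelial gene. The 8 endothelial markers summed to 133.9 to 166.8 CPM in WT and to 245.0, 174.0 and 122.7 CPM in KO replicates 1 to 3. That sum was above the WT libraries in KO replicates 1 and 2 and below them in KO replicate 3. Ace was below the WT libraries in all 3. In KO replicate 2, Kdr (35.1 CPM), Tek (8.24 CPM) and Egfl7 (17.2 CPM) lay within their WT ranges. None of the 8 was at 0, and their part in the level of Ace was not tested. The antisense gene Gm11651, which overlaps Ace, had at most 1 read in a library.

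Atp6ap2 encodes the prorenin receptor, a membrane protein that also belongs to the proton pump of acidic organelles, the V-ATPase (chrX:12587801-12617049, plus strand). It measured 102.2, 108.9 and 118.5 CPM in the WT libraries, against 144.2, 123.9 and 112.9 CPM in the KO libraries. KO replicates 1 and 2 lay above the WT libraries and KO replicate 3 among them, with a log2 fold change of 0.21 ± 0.10 (95% interval -0.01 to 0.43). Agtr2 lies on the same chromosome, with a log2 fold change of -0.92 and no overlap between groups. The part of chromosome position was not tested.

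Enpep encodes aminopeptidase A, which trims angiotensin II to angiotensin III (chr3:129269175-129332720, minus strand). It measured 15.7, 15.6 and 15.3 CPM in the WT libraries, against 15.2, 14.9 and 23.8 CPM in the KO libraries. The 5 other libraries were nearly level, and KO replicate 3 stood alone above them. The log2 fold change of 0.21 ± 0.18 turned to -0.05 without that library. The pseudogene Gm42628, which overlaps Enpep, had at most 3 reads in a library.

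Lnpep encodes insulin-regulated aminopeptidase, the binding site of angiotensin IV, which also degrades oxytocin (chr17:17527723-17624489, minus strand). It measured 37.7, 37.4 and 36.7 CPM in the WT libraries, against 30.6, 36.4 and 37.5 CPM in the KO libraries. KO replicate 1 was the lowest and the other KO libraries lay near the WT libraries, with a log2 fold change of -0.10 ± 0.09 (95% interval -0.29 to 0.10).

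Across the 8 genes, 6 had a negative fold change and 2 a positive one; the median was -0.20 on the log2 scale, where the median over all 18250 fitted genes was 0.00. In 3 of the 8 the KO libraries lay below the WT libraries without overlap, as they did in 7.89% of all fitted genes, and in none did they lie above without overlap (7.68% of all fitted genes). Agtr2 alone passed an adjusted p under 0.05, the threshold that 0.0932% of all fitted genes passed as lower in KO and 0.219% in either direction (edgeR's quasi-likelihood test). Since results of this comparison shaped the list, these counts are not evidence about it. The call of Agtr2 was not made in the 3 fits that each left out 1 WT library, where its log2 fold change was -0.85 to -0.97, and it was made in the 3 that each left out 1 KO library. Without KO replicate 3, Ren1 (-1.06) and Ace (-0.45) were called lower as well, in a fit that called 421 genes (2.26%), 97 of them lower (0.521%), where the fit of all 6 libraries called 40. DESeq2 called Agtr2 and Ren1 lower, beside 0.526% of all its genes lower and 0.71% higher, and the fit with no filter called Agtr2, Ren1 and Ace lower, beside 0.316% lower and 0.301% higher.

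Per kilobase of exon in WT, the order was Agt (105 ± 7.26 CPM per kilobase), Atp6ap2 (42.0 ± 3.14), Lnpep (7.20 ± 0.101), Ace (6.10 ± 0.793), Agtr2 (4.36 ± 0.391), Enpep (3.30 ± 0.0432), Ren1 (1.33 ± 0.277) and Agtr1a (0.608 ± 0.113). Every neighbouring pair in that order was separated, in that the lowest library of one lay above the highest of the next. In KO the order was the same except that Enpep (3.81 ± 1.08) stood above Agtr2 (2.30 ± 0.119). In KO, Ace and Enpep overlapped, as did Ren1 (0.568 ± 0.150) and Agtr1a (0.542 ± 0.171). Agtr2 thus stood above Enpep in each WT library and below it in each KO library. With the longest annotated transcript as the length, Lnpep moved from the third to the sixth place in WT, and the order of the other 7 genes stayed as it was. That transcript of Lnpep has 12052 bases in GENCODE M21, where the gene's start and end are not both those of the count files. Its reads were counted over 5181 exon bases only, so its sixth place rests on a length that does not match its counts.

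**Figure D2:**
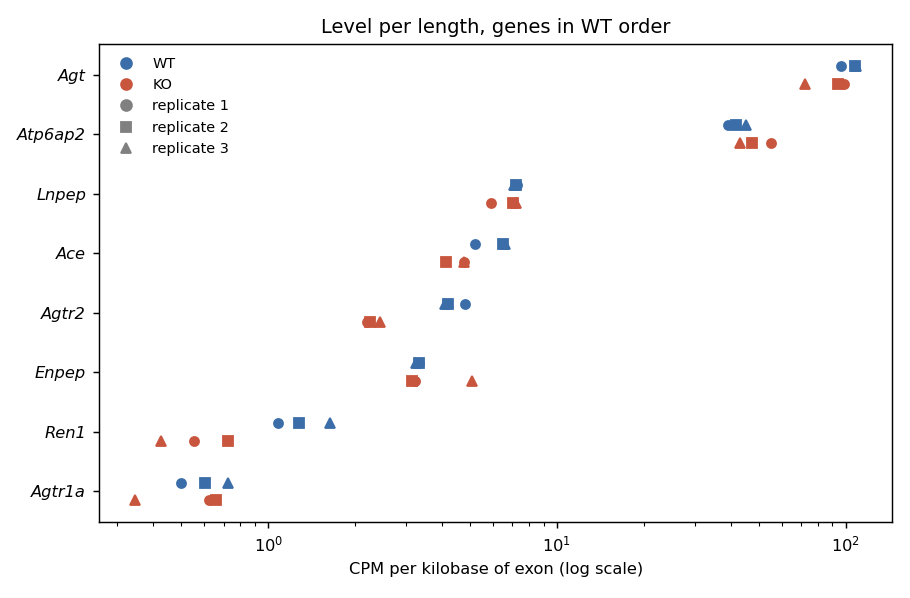
CPM per kilobase of exon (x axis, log scale) for the 8 genes in their WT order, with 1 point for each library. Agtr2 lies above Enpep in every WT library and below it in every KO library, and Agt and Atp6ap2 stand apart at the top.

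The KO libraries were not alike in these genes. KO replicate 3 was the lowest library for Agtr1a, Agt and Ren1 (-0.77, -0.53 and -1.57 from the WT mean on the log2 scale) and the highest for Enpep (0.61). KO replicate 1 was the lowest for Lnpep and the highest for Atp6ap2. Agtr2 differed from the WT mean by -0.98, -0.94 and -0.83 in KO replicates 1 to 3, and Ace by -0.35, -0.55 and -0.35.

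Marker genes of other ovarian cells also differed between these libraries. The 7 stromal fibroblast markers had a median of -0.76 in KO replicate 3, and their summed level was 993 to 1224 CPM in WT and 664 to 1286 CPM in KO. The 7 markers of the ovarian surface had a median of -0.59 in KO replicate 3, with summed levels of 415.0 to 597.3 CPM in WT and 358.2 to 500.4 CPM in KO. All 8 oocyte markers had a negative fold change, and their summed level was 600.9 to 798.3 CPM in WT and 488.9 to 543.4 CPM in KO, without overlap. All 7 luteal markers stood on the positive side, at 5149 to 5966 CPM in WT and 5900 to 11692 CPM in KO. The 6 theca and interstitial markers summed to 868.4 to 1074.6 CPM in WT and 1285 to 1823 CPM in KO, without overlap. Most of that sum was Aldh1a1, with means of 725.6 CPM in WT and 1171.2 CPM in KO. Ptch1 and Gli1, of the same 6, had negative fold changes (-0.10 and -0.28). The 6 red blood cell markers summed to 382.6 to 797.7 CPM in WT and 829.3 to 2258 CPM in KO, also without overlap, and all 6 had a positive fold change; Slc4a1, an anion exchanger of red blood cells, rose from 0.227 CPM in WT to 1.01 CPM in KO (adjusted p = 0.0406, edgeR). No marker of these lists was at 0 in all libraries. Their part in the levels of the 8 genes was not tested, and in bulk RNA fewer cells of a type and less RNA per cell cannot be told apart.

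**Figure D3:**
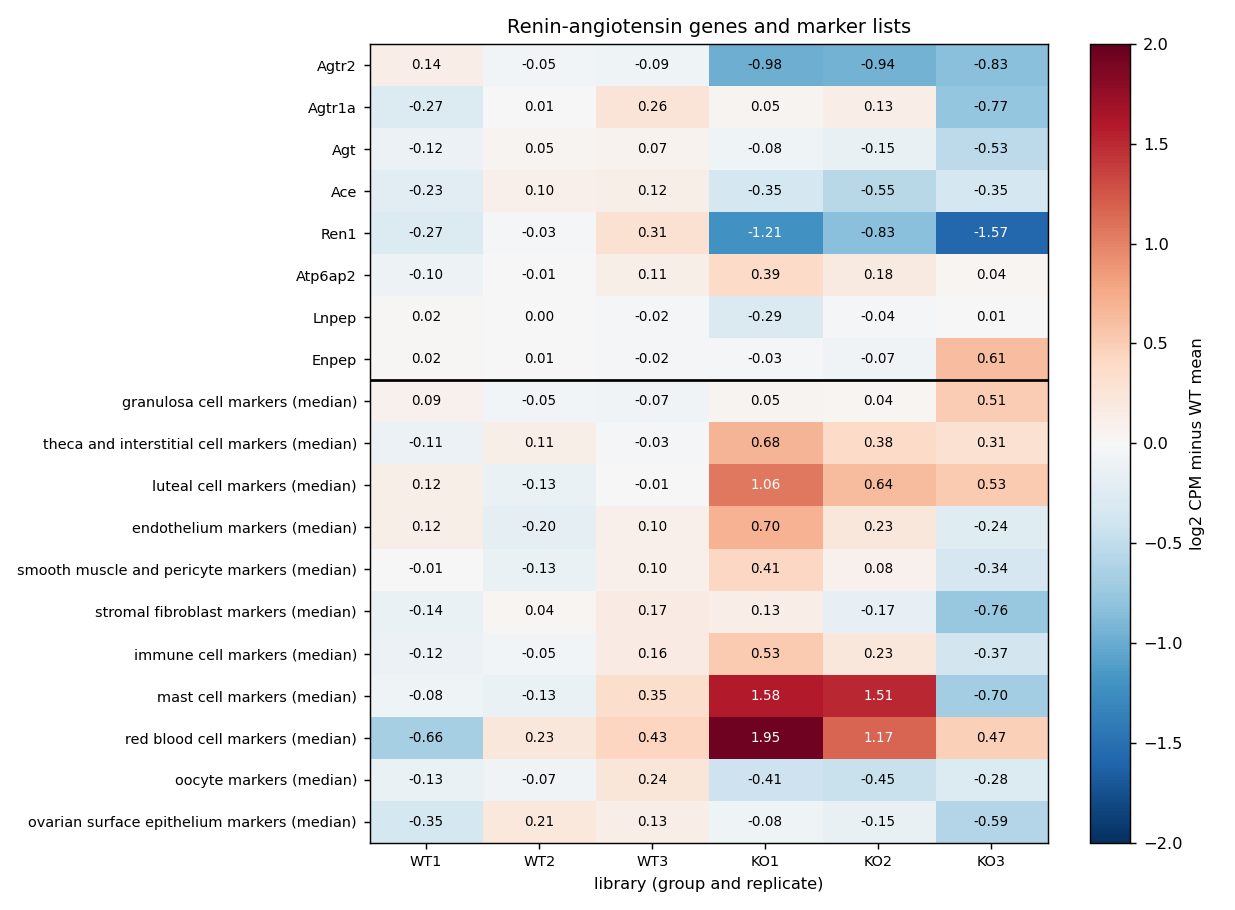
Difference in log2 CPM from the WT mean in each of the 6 libraries (columns) for the 8 genes (upper rows) and, for each cell type, the median over its marker genes (lower rows). Blue is lower and red is higher; Agtr2 is blue in all 3 KO libraries, at -0.98, -0.94 and -0.83, while most marker lists differ between KO replicates 1 and 3.

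The genes whose profile over the 6 libraries was most like that of Agtr2 were named by the smallest root mean square difference of centred log2 CPM, among 13470 other protein-coding genes that averaged 1 CPM or more. They were Nipal1, a magnesium transporter gene (difference 0.122), Ap1s3, an adaptor complex subunit gene (0.128), 6330403K07Rik (0.173), Slc15a5 (0.177) and Amhr2, the receptor gene for anti-Müllerian hormone (0.177). Nipal1 stood at 52.6 to 59.3 CPM in WT and 32.3 to 33.3 CPM in KO, and Amhr2 at 239.7 to 292.8 and 127.3 to 140.7 CPM. All 5 were lower in every KO library than in any WT library, which such a measure selects for. The 5 most like Agtr1a were Pkhd1l1 (0.0767), Parp3 (0.0803), Lgr5 (0.0832), Pdlim3 (0.0842) and Ccl6 (0.0861). Each was at its lowest in KO replicate 3, as Agtr1a was, which the measure also selects for. With 41 to 90 reads a library for Agtr1a, this ranking is uncertain. Lgr5, a receptor for R-spondins that also marks cells of the mouse ovarian surface, ranged over 52.3 to 67.6 CPM in WT, against 65.9, 62.3 and 37.3 CPM in KO.

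Of 18 other genes of the system, 13 were fitted and none passed the test in edgeR, against 0.219% of all fitted genes. The median log2 fold change was 0.07, and DESeq2 called none either. Anpep, aminopeptidase N, which trims angiotensin III to angiotensin IV, was the only one with an unadjusted p under 0.05. It measured 94.2, 117.8 and 123.2 CPM in the WT libraries, against 88.2, 84.5 and 54.6 CPM in the KO libraries, without overlap (log2 fold change -0.56 ± 0.20 SE, adjusted p = 0.488, edgeR). The lowest value was again that of KO replicate 3. The stromal fibroblast medians were 0.13, -0.17 and -0.76 in KO replicates 1 to 3, and their part in the level of Anpep was not tested.

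The receptor gene Mas1 had 5 to 18 reads a library and was not fitted, and Mrgprd and Ctsg had none. Prcp, a carboxypeptidase that also cuts angiotensin II, stood at 36.5 ± 1.70 and 41.0 ± 4.78 CPM (0.17 ± 0.09 SE, adjusted p = 0.62, edgeR).

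Cma1, a chymase, and Cpa3, a carboxypeptidase, are mast cell granule proteases, a class known to process angiotensin I outside the Ace route. Cma1 measured 0.486, 0.357 and 0.674 CPM in the WT libraries, against 2.02, 1.74 and 0.270 CPM in the KO libraries. Cpa3 measured 0.311, 0.273 and 0.416 CPM in the WT libraries, against 1.07, 1.01 and 0.187 CPM in the KO libraries. Both were high in KO replicates 1 and 2 and lowest of all in KO replicate 3, so neither passed (adjusted p = 0.608 and 0.597, edgeR). Without KO replicate 3 they were called higher (log2 fold change 1.89, adjusted p = 0.00087, and 1.63, adjusted p = 0.0101, edgeR), in a fit that called 1.74% of all its genes higher. Another mast cell gene, Tpsb2, measured 2.66, 1.67 and 0.415 CPM in the KO libraries, and 0.292 to 0.456 CPM in the WT libraries. The 6 mast cell markers include Cma1, Cpa3 and the Kit gene that other ovarian cells also express. They summed to 38.5 to 43.8 CPM in WT and 47.9 to 70.7 CPM in KO, and nearly all of that was Kit. Kit alone measured 37.3 to 41.9 CPM in WT and 47.0 to 64.7 CPM in KO. The median over the fitted markers was 1.58, 1.51 and -0.70 from the WT mean (log2) in KO replicates 1 to 3. No mast cell marker was at 0 in all libraries, and Mcpt4 had no read in KO replicate 3. The part of mast cells was not tested.

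Among 15 genes for receptor partners and the G proteins, arrestins and regulators downstream of the receptors, none passed in edgeR or DESeq2 and none had an unadjusted p under 0.05. The median log2 fold change was 0.06. The kinase gene Grk2, which desensitises receptors, stood at 66.8 ± 0.800 CPM in WT libraries and at 73.0 ± 0.742 CPM in KO libraries (0.13 ± 0.06 SE), and the arrestin gene Arrb2 at 21.6 ± 0.464 and 19.6 ± 0.260 CPM (-0.14 ± 0.07 SE). These 2 of 15 did not overlap between groups, as 15.6% of all fitted genes did not, and the adjusted p were 0.55 and 0.597 (edgeR).

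Agtrap, whose product binds the type 1 receptor and promotes its internalisation, measured 57.0, 59.5 and 58.2 CPM in the WT libraries, against 88.7, 75.5 and 53.1 CPM in the KO libraries (0.31 ± 0.17 SE, adjusted p = 0.635, edgeR). It was called higher without KO replicate 3 (0.49, adjusted p = 0.00234, edgeR). Mtus1, which encodes a protein that binds the type 2 receptor, stood at 90.5 ± 8.04 and 82.1 ± 5.53 CPM (-0.14 ± 0.08 SE, adjusted p = 0.638, edgeR). Rgs2, which dampens Gq signalling, stood between 502.2 and 535.9 CPM in the WT libraries, against 396.5, 420.5 and 1181.9 CPM in the KO libraries. It was thus below the WT libraries in KO replicates 1 and 2 and above them in KO replicate 3. Rgs2 was called lower without KO replicate 3 (-0.36, adjusted p = 0.0467, edgeR). The fit without that library called 1.74% of all its genes higher and 0.521% lower.

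The V-ATPase genes, the partners of Atp6ap2, had small positive fold changes in 15 of 19 (median 0.06). None passed in edgeR, 3 had an unadjusted p under 0.05, and DESeq2, which called 1.24% of all genes (0.71% higher), called 1, Atp6v0a1 (0.35, adjusted p = 0.0177). Atp6v0a1, a subunit of the membrane sector, measured 89.3, 84.3 and 93.1 CPM in the WT libraries, against 116.9, 104.3 and 119.2 CPM in the KO libraries. The groups did not overlap (0.35 ± 0.07 SE, adjusted p = 0.167, edgeR). The subunit genes Atp6v0a2 (0.16 ± 0.06 SE) and Atp6v0c (0.19 ± 0.08 SE) did not overlap either (adjusted p = 0.482 and 0.503, edgeR). Atp6v0a4, at 0.687 CPM in KO and 1.08 CPM in WT, did not overlap in the lower direction, with a fold change of -0.64 ± 0.31 (adjusted p = 0.582, edgeR). Over all fitted genes the share without overlap was 7.68% higher and 7.89% lower in KO. Without KO replicate 3 the test called Atp6v0a1 (0.31, adjusted p = 0.0418, edgeR) and Atp6v0e2 (0.37, adjusted p = 0.0263, edgeR) higher. That fit called 1.74% of all its genes higher.

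**Figure D4:**
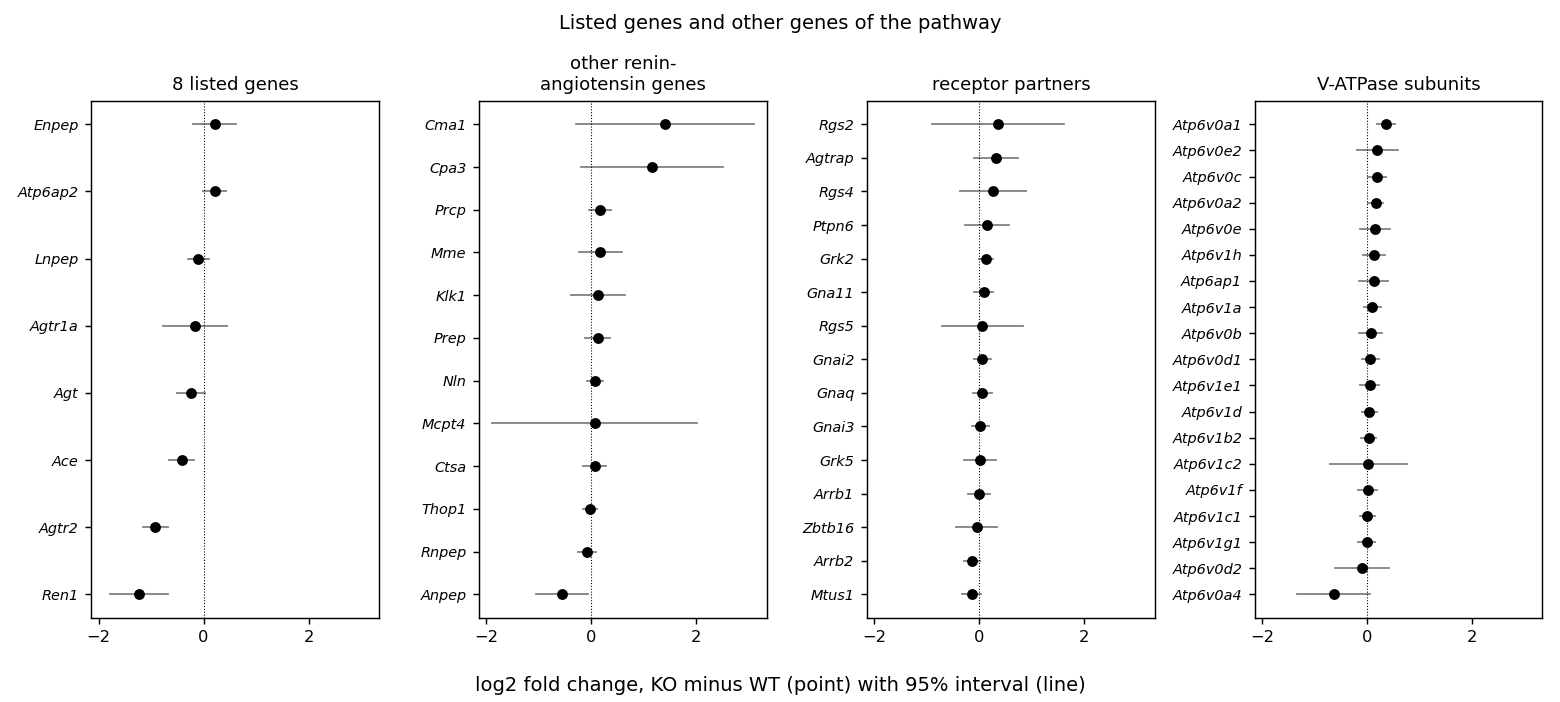
Log2 fold change, KO minus WT (x axis, with the 95% interval as a line), for the 8 listed genes and the fitted genes of the other 3 lists, apart from 1 not shown. The whole interval lies below 0 for Agtr2, Ren1, Ace and Anpep and above 0 for Atp6v0a1, Atp6v0a2 and Atp6v0c; the 8 listed genes were selected with this comparison known, so their panel is a description.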

How the data were processed

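RNA of 3 WT and 3 KO libraries was measured by paired-end sequencing. The authors deposited whole-number counts per gene, not normalized. The submitters' processing notes name Trimmomatic 0.36, STAR 2.5.2b, Subread 1.5.2 with featureCounts, and the GRCm38 build. The sources used here do not give the annotation release, the strand setting or the treatment of reads matching several places, so overlapping genes and close copies have uncertain values. Groups came from the labels.

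Identifiers were matched to GENCODE M21 (49056 of 49315). Counts were analysed with edgeR 4.0.16 (R 4.3.3): filterByExpr (18250 genes kept), TMM, a robust quasi-likelihood test on genotype alone, Benjamini-Hochberg adjustment over all genes kept, calls at an adjusted p under 0.05. A prior count of 2 entered log2 CPM, and CPM per kilobase used the deposited exon lengths. The members and lists were chosen with earlier results of these data known. Named genes were the 8, the 4 with the smallest p of each other list, and the 5 most like each receptor gene. Mas1, Mrgprd, Ctsg, Agtr1b, Rgs2, Atp6v0e2, Tpsb2, Slc4a1 and any other marker gene outside these rules were chosen after their values were seen. Ren2 was not analysed here, and 1 gene of the lists is counted but not reported by name.

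On counts simulated for this comparison (18250 genes, 200 changed), the test recovered 43.3%, 65.7% and 95.5% of genes changed 1.5-fold, 2-fold and 4-fold, and 4.90% of its calls were unchanged genes. Each simulated count was drawn independently, with no library set apart over many genes. These rates may therefore not hold for the libraries here, where the calls changed much without KO replicate 3. Alternatives were RLE and upper quartile scaling, DESeq2 1.42.0, other filters, the replicate number as a block and leaving out each library. Promoter windows came from RefSeq (GRCm38.p6).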

Additional observations from a re-analysis of the deposited data

How the results depend on the processing

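The sign of the fold change was negative for Agtr2 (-0.85 to -0.97), Ren1 (-1.06 to -1.44), Ace (-0.36 to -0.52), Agt and Lnpep and positive for Atp6ap2 in all 12 alternative fits; Agtr1a (0.07) and Enpep (-0.05) changed sign without KO replicate 3. Each of the 8 moved by less than its within-group SD of log2 CPM pooled over both groups, an SD that includes KO replicate 3.

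Counts of calls moved more, and the cause was not tested. Over all genes the test called 40, against 221 in DESeq2, 199 with no filter, 21 with a filter at a mean of 1 CPM, 15 with the replicate block and 8 to 421 when 1 library was left out. Of the 8 genes it called 1, against 2 in DESeq2 (Agtr2 and Ren1), 3 with no filter (also Ace), 0 with the replicate block (Agtr2 lost its call) and 0 to 3 when 1 library was left out. Of the V-ATPase genes DESeq2 and the fit with no filter each called 1 (Atp6v0a1), and leaving out 1 library gave 0 to 2, as it did for the receptor partners and for the other genes of the system. RLE and upper quartile scaling kept the counts within 1.5 times. The longest transcript as the length moved 4 of the 8 genes in the order of levels.

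The replicate numbers are only names: deviations of same-numbered libraries correlated at -0.02, 0.07 and -0.03, and 2 of 6 libraries correlated best with their own number. With 34 to 136 reads a library for Ren1 and 41 to 90 for Agtr1a, these 2 genes had the fewest reads of the 8; the effect of depth was not tested.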
